A study of Arabidopsis thaliana with 8 samples.

Results

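GI (GIGANTEA, AT1G22770) is a clock gene, and its messenger RNA was followed over the day in rosettes of an *Arabidopsis thaliana* mutant. The gene was chosen by its name and its probe set, which is 1 of 13513 probe sets with exactly 1 gene in the platform's gene table and 1 of 22810 probe sets on the array. All 8 arrays came from the pgm mutant in the Col-0 background, which lacks plastidial phosphoglucomutase and therefore makes almost no leaf starch. Per the labels, the plants were 5 to 6 weeks old, and the material of 15 whole rosettes (5 harvests of 3) was frozen in the growth chamber and ground together. The hours 00h and 12h had 2 arrays, lettered A and B. The hours 04h, 08h, 16h and 20h had 1 array, lettered A. A count of 8 times is given in the design text and 6 hours in the labels. By the labels every group shared genotype, age and tissue and differed in the hour. The labels do not give the hours of light and dark, the allele, or whether A and B were separate plants, so the p-values rest on a spread among arrays that could be purely technical. A wild type was not analysed here, so nothing below compares the mutant with normal plants.

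GI is a large nuclear and cytosolic protein found across land plants. It binds the blue-light receptor ZTL and steadies it, which shapes the nightly breakdown of the clock protein TOC1. With the related F-box protein FKF1 it removes the CDF repressors, so that CO and then FT, the mobile flowering signal, can be made in long days. In wild-type plants its transcript is known to be low at dawn, to climb through the day and to fall in the evening, under repression by the morning clock proteins CCA1 and LHY and by the evening complex. GI is also known to act in responses to light, cold, salt and sucrose.

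Whole rosettes hold many cell types, and in pooled tissue fewer cells of a type cannot be told apart from less RNA per cell. Leaf genes were bright on every array, with RCA, of Rubisco activase, between 2299.9 and 6704.5 and LHCB4.1, of the photosystem II antenna, between 2765 and 6294.7. Of the 5 leaf markers 1 passed a test for a 24 h rhythm (40.7% of all tested probe sets did), namely LHCB4.2 (limma adjusted p = 8.55e-04), with 3897.9 at 04h and 1179.8 at 16h. LHCB4.3 was lowest at 08h (382.5) and highest at 20h (1009). The root marker PYK10 was between 89.3 and 300 and was lower at 12h than at 00h. STZ, induced by touch and wounding, ran against GI (r = -0.96 over 8 arrays), with 26.2 at 08h and 170.9 at 16h. Hybridisation control probe sets were higher on 00h A and 12h A (mean log2 9.17 and 9.21) than on the other arrays (7.26 to 7.58). Actin 3' over 5' intensity, a sign of RNA quality, was highest on the 12h arrays (3.11 and 3.19), lowest at 16h (2.29) and between 2.53 and 2.74 on the others. The part of PYK10, STZ and the actin ratio in the values of GI was not tested.

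GI messenger RNA rose from a very low level at 00h to a single high value at 08h, stayed high at 12h and was back at its low level by 16h. The deposited intensity of GI was 9.2 on 00h A and 12 on 00h B. It was 70.4 at 04h and 372.3 at 08h. It was 151 on 12h A and 184.7 on 12h B, then 7.8 at 16h and 4.6 at 20h. The arrays of 04h, 08h and 12h all lay above those of 16h, 20h and 00h. The spread between paired arrays was small beside these steps, with 10.6 ± 1.98 at 00h and 167.8 ± 23.8 at 12h (SD, n = 2 arrays each).

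**Figure D1:**
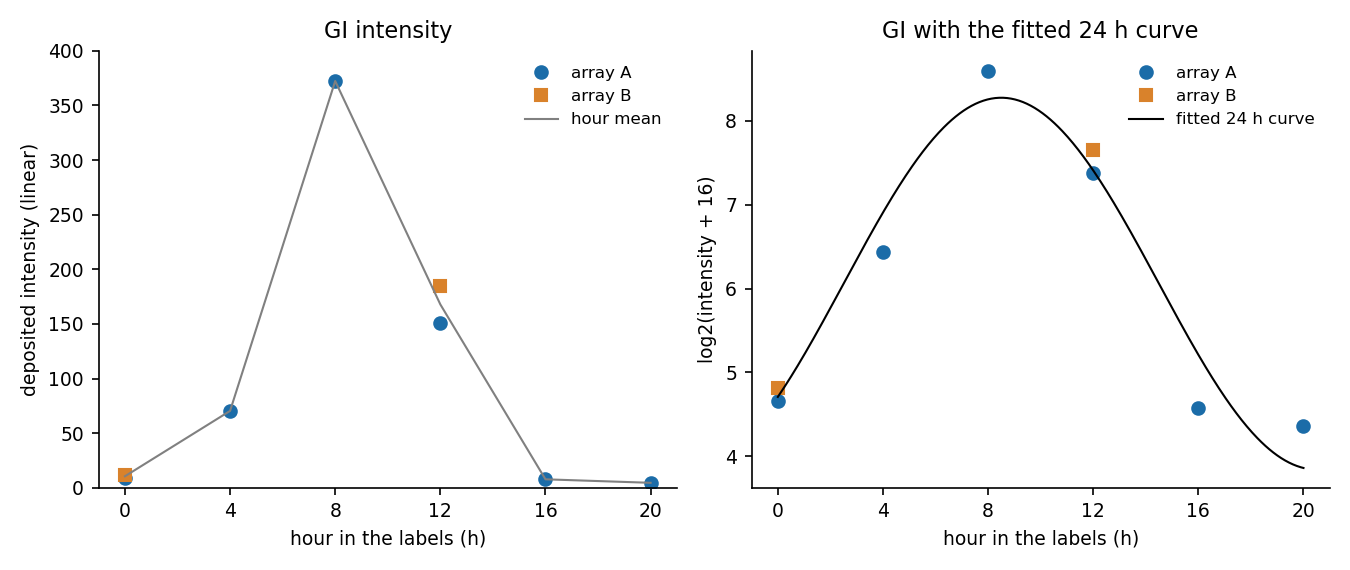
Left, deposited GI intensity (linear scale) against the hour in the labels, with a point for each of the 8 arrays and a line through the hour means. Right, the same arrays as log2(intensity + 16) with the fitted 24 h curve, which lies below the 08h array and above the 04h and 16h arrays.

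The low values lie where the array measures little. The 27 control probe sets for *Bacillus* transcripts reached at most 10.8 and 12.8 on the arrays 00h A and 00h B, 6.4 at 16h and 6.6 at 20h. GI was below that highest control on both 00h arrays and at 20h, and just above it at 16h. In rank, 34.3% or fewer of the 22746 other probe sets were dimmer than GI at 00h, 16h and 20h, against 63.6% at 04h, 92% at 08h and 81% and 83.6% at 12h. A ratio of intensities against 00h, 16h or 20h is therefore not given, and differences are given as log2(intensity + 16), which understates changes near 0.

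Read against its highest value, GI stood at 18.9% at 04h and at 45.1% at 12h, and at 2.85% or less at the other 3 hours. A straight line between neighbouring hours passed 50% of the 08h value (an intensity of 186.2) at 5.53 h and again at 11.6 h, which left 6.11 h above it. These crossing times rest on values 4 h apart and on the single 08h array. The 08h value was 5.29 times the 04h value and 2.22 times the 12h mean. On the linear scale most of the rise thus lay between 04h and 08h. On the log2 scale GI stood at 8.66% of the range from lowest to highest hour at 00h and at 48.8% at 04h. The steps before and after 04h were thus more alike in size on that scale, with the later one still the larger.

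The step from 00h to 04h was a rise of 1.70 ± 0.288 log2 units (SE; limma adjusted p = 0.00199), in a comparison where 27.0% of 13647 tested probe sets passed. From 04h to 08h GI rose by a further 2.17 ± 0.333 (limma adjusted p = 0.0128), where 1.03% of probe sets passed. The later call was lost with a pseudocount of 1 (limma adjusted p = 0.0697) and with dim probe sets kept (0.212). Both hours have 1 array and were assumed to vary like the paired hours.

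From 08h to 12h GI had a log2 difference of -1.08 ± 0.288, with an interval from -1.73 to -0.444. This did not pass over all probe sets (limma adjusted p = 0.343), and 0.0879% of probe sets passed there. From 12h to 16h GI fell by 2.94 ± 0.288 (limma adjusted p = 1.99e-04), where 11.2% passed. From 16h to 20h the difference was -0.21 ± 0.333 (interval -0.949 to 0.532; 0.00733% of probe sets passed). From 00h to 20h it was -0.37 ± 0.288 (interval -1.01 to 0.274; 0.139% passed). Neither of these passed, and the intervals are wide.

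The order of the hour means was 08h, 12h, 04h, 00h, 16h and 20h from high to low. Of the neighbours in this order, only 04h and 00h differed past the threshold. The difference 12h minus 04h was 1.08 ± 0.288 (interval 0.442 to 1.72, limma adjusted p = 0.0887, 2.67% passed). It passed with quantile normalization (limma adjusted p = 0.0419). It also passed with the letters as a block (0.979, limma adjusted p = 0.0481) and with the hybridisation control level as a term (limma adjusted p = 0.0199). Each of these terms takes up a residual degree of freedom. With either 00h array left out the difference was again 1.08. Only the 12h pair then gave a spread, so no call is given. The difference 16h minus 00h was -0.16 ± 0.288 (interval -0.800 to 0.483; 4.16% passed). Over all 15 pairs of hours 10 passed for GI, namely each pairing of 04h, 08h or 12h with 00h, 16h or 20h, and 08h with 04h. For the passing pairs not given elsewhere, 33.6% of probe sets passed for 08h minus 00h, 16.3% for 20h minus 04h, 8.52% for 16h minus 08h and 26.2% for 20h minus 12h.

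**Figure D2:**
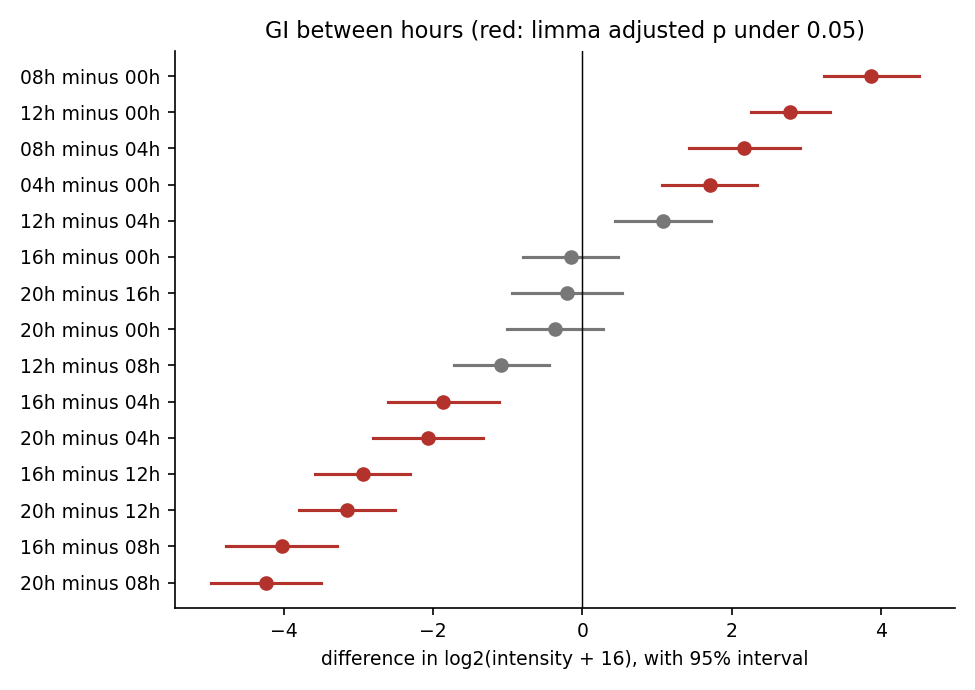
Difference in GI log2(intensity + 16) for each of the 15 pairs of hours, later minus earlier hour in the labels, with 95% intervals from limma. The 10 red pairs passed after adjustment over all probe sets, and the 5 grey pairs did not.

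Hours 12 h apart differed in GI in all 3 cases. GI was higher at 12h than at 00h by 2.78 ± 0.236 (limma adjusted p = 1.52e-05; 40.5% of probe sets passed, 21.9% as higher), and by 2.73 within the A arrays and 2.84 within the B arrays. It was lower at 20h than at 08h, with a difference of -4.24 ± 0.333 (limma adjusted p = 5.40e-05; 20.5% passed). It was also lower at 16h than at 04h, with -1.86 ± 0.333 (limma adjusted p = 0.00789; 8.16% passed), a call that was lost with dim probe sets kept (0.0846). These sizes depend on the pseudocount. With pseudocounts of 64 and 1, 12h minus 00h was 1.63 and 3.87, 04h minus 00h was 0.85 and 2.63, 12h to 16h was -1.69 and -4.25, and 20h minus 08h was -2.67 and -6.06.

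A cosine curve with a 24 h period fitted GI with an amplitude of 2.22 ± 0.197 log2 units from mid-level to peak and a peak at 8.50 ± 0.318 h (SE) (limma F test, adjusted p = 2.22e-04). Of the tested probe sets 40.7% passed this test, and the amplitude of GI was at place 102 of 13647. That place was 58 with a pseudocount of 1, 291 with 64 and 229 without the 08h array. With hours from 1 day and a preset period, recurrence was not tested. Without 00h A and 12h A, the arrays with the brighter hybridisation controls, the amplitude was 2.21 and the peak at 8.49 h (limma adjusted p = 0.0111). The curve took up 94.5% of the variance of GI over the 8 arrays and missed it in an ordered way. GI lay 0.34 above the curve at 08h and 0.51 above it at 20h, and 0.47 below it at 04h and 0.64 below it at 16h. On this scale the measured profile was thus narrower than a cosine, with a high 08h value and a fall that was complete by 16h. The fitted value at 20h was 3.86, lower than any intensity can give on this scale, so GI had to lie above the curve there. The values at 00h, 16h and 20h lie near the control level, and the part of that floor in the misfit was not tested. A curve with a 12 h term added, which had an amplitude of 0.57, peaked at 8.90 h. With the 04h array left out the fitted peak was at 8.16 h, and with the 16h array left out at 9.03 h. The highest array was 08h, and since the 12h difference did not pass, these data place the peak between 04h and 16h but do not separate 08h from 12h.

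Likeness to GI was measured as Pearson's r of log2(intensity + 16) over the 8 arrays, which share their scaling and of which 4 are paired by hour. It is given as a description. Among the other 13646 tested probe sets the median r was 0.09, and 591 (4.33%) reached 0.9 and 53 (0.388%) reached 0.95. In the opposite sense 726 (5.32%) had r of -0.9 or lower and 107 (0.784%) of -0.95 or lower. A large r of either sign was more common than an r near the median. Bins of 0.05 held 163 probe sets from 0 to 0.05 and 832 from 0.85 to 0.9.

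Among genes whose hour means ranged over at least 1 log2 unit, the 12 with the highest r had values between 0.959 and 0.973. None of these 12 has a gene symbol in the tables, so they are named by locus, from high to low AT1G70810, AT1G80720, AT4G15640, AT3G46630, AT2G39390, AT1G24310, AT5G47060, AT1G22270, AT3G15460, AT5G02050, AT5G27395 and AT3G17030. All 12 had their highest hour mean at 08h, as the choice by r favours, with fitted peaks between 8.16 h and 9.01 h. AT1G70810 had intensities of 98.3 and 151.1 at 00h, 225.8 at 04h, 363.8 at 08h, 293.7 and 291.7 at 12h, 130.2 at 16h and 115.9 at 20h. Its 04h, 08h and 12h arrays were all above the others, but its lowest array was far above 0. AT5G02050 moved more widely, with 37.9 and 36.8 at 00h, 210.5 at 04h, 332.7 at 08h, 307.4 and 269.4 at 12h, 57 at 16h and 30.3 at 20h. The highest r among all probe sets of that range (0.979) was that of a probe set without a gene in the table, singled out once its values were known. It went from 12 and 12.5 at 00h to 62.4 at 08h and back to 13 at 20h.

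A high r did not mean an equal size of change. The ranges of the 12 genes ran from 1.02 to 2.91 log2 units, against 4.24 for GI. Over the 50 probe sets with the highest r among the 5677 with a range of at least 1 log2 unit (r 0.946 to 0.979), the median range was 1.52, a value the limit on range raises, and 1 reached that of GI. They also differed in when the change took place. By 04h these 50 had covered a median of 70.6% of their range, against 48.8% for GI, and 4 of the 50 had covered less than GI. At 12h they stood at a median of 88% of their range and GI at 74.4%, and at 16h at 20.4% and GI at 4.92%. With the pseudocount of 16, GI thus rose later and fell back sooner and more fully than most of these 50. This contrast depends on the pseudocount, since the low values of GI lie near the control level. With a pseudocount of 1, GI rose by 2.63 from 00h to 04h and by 2.39 from 04h to 08h. The shares of the range were not computed with other pseudocounts. The ranges and shares are descriptions of lists chosen on the same values. The list rests on single arrays, too. Without the 04h array 2 of the 12 genes stayed among the 50 highest, and without the 08h array 6 did. Without 00h A and 12h A, 27 of the 50 probe sets were kept.

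**Figure D3:**
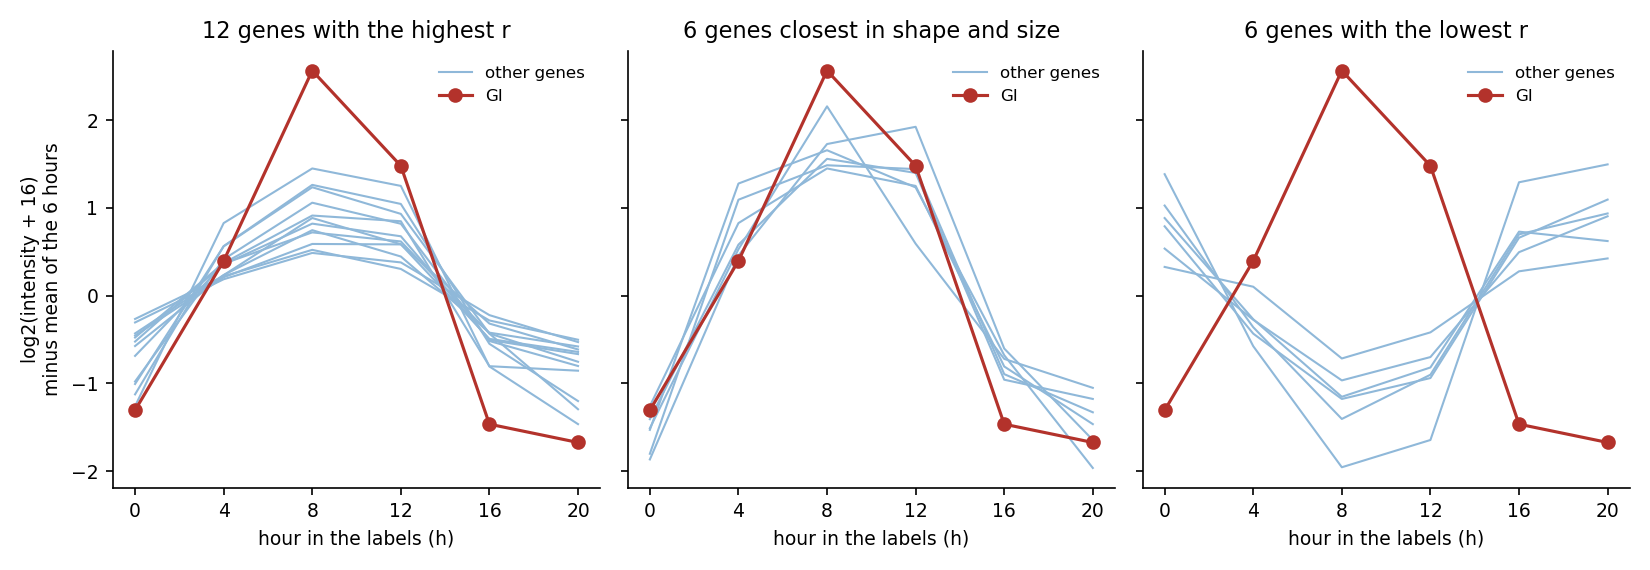
Hour means of log2(intensity + 16), each centred on the mean of its own 6 hours, against the hour in the labels, for GI (red) and other genes (blue). The 12 genes with the highest r share the shape at a smaller size, the 6 closest in shape and size reach nearer to GI, and the 6 with the lowest r mirror it.

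Likeness in shape and size together was measured as the root mean square difference of the centred hour means, in log2 units. The 6 closest genes were AT1G13930 (0.511), AT4G36010 (0.571), AT1G68600 (0.571), AT5G02050 (0.571), APL3 (AT4G39210, 0.624) and AT3G61820 (0.634), of which AT5G02050 is also among the 12 above. AT4G36010 had the most pointed profile of the 6, with 4.2 and 11.3 at 00h, 80.5 at 04h, 282.3 at 08h, 90 and 79.9 at 12h, 24.6 at 16h and 16.3 at 20h. On both 00h arrays AT4G36010 lay below the highest *Bacillus* control (10.8 and 12.8). AT1G68600 was highest at 12h, with 422.9 at 08h and 515.9 and 459.4 at 12h. APL3, which encodes a large subunit of the starch-building enzyme ADP-glucose pyrophosphorylase, had 16.1 and 14.2 at 00h and 215.5 at 04h. It had 287.9 at 08h, and 231.1 and 335.9 on the 12h arrays. Unlike GI it was nearly as high at 04h as at 08h. The closest of all with a range of at least 1 (0.475) was another probe set without a gene in the table, singled out once its values were known. It peaked even more sharply, with 170 at 04h, 1253.7 at 08h and 273.9 and 136.9 at 12h. Of the 50 probe sets closest by this measure 6 were among the 50 with the highest r, both lists being limited to a range of at least 1.

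The 6 genes most opposed to GI, with r between -0.984 and -0.975, were AT4G33666, AT4G28300, AT3G49160, AT5G39080, AT5G46150 and AT1G47530. All were lowest at 08h, as the choice by r favours. AT4G33666 had 527.2 and 651.4 at 00h, 138.8 at 04h, 43.5 at 08h, 70.3 and 47.1 at 12h, 548.8 at 16h and 634.5 at 20h. Its 00h, 16h and 20h arrays lay above all those of 04h, 08h and 12h. AT4G28300 went from 281.4 and 284.1 at 00h to 60.4 at 08h and 352.9 at 20h, and AT3G49160 from 107.8 and 114.9 to 7.6 and 103.6 at the same hours. At 08h AT3G49160 lay below the highest *Bacillus* control (9.2). The fitted peaks of the 6 genes lay between 20.6 h and 21.1 h, which the same choice favours.

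The genes that act with GI could be followed only in part. Of 82 genes listed for the morning and evening clock, for GI partners and flowering, for clock outputs, for photoreceptors and for light signalling, 8 have a named probe set, and all 8 were tested. The 12 evening clock genes and the 10 photoreceptor genes have none in the gene table used here, and TOC1, ZTL, FKF1, CO and FT were not analysed here. Over the 8 genes 4 passed the rhythm test (40.7% of all probe sets did). From 00h to 04h 4 were lower and 0 higher by limma (11.5% and 15.6% of all), and from 04h to 08h 3 were higher and 1 lower (0.667% and 0.359%). The 3 genes higher at 08h were COR27, AT4G33980 and CCL, which were low on the single 04h array. At 12h 3 of the 8 genes were lower than at 00h and 0 higher by limma (18.6% and 21.9% of all). The lists were chosen with earlier results of these data known, so these counts are a description. None of the 8 genes followed GI closely, since r ran from -0.90 to 0.06.

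AT1G69570, listed here as the GI and FKF1 target CDF5, a repressor of flowering, was high at 00h when GI was low. Its intensity was 123.3 and 100.3 at 00h, 29.4 at 04h, 22.9 at 08h, 6.8 and 12.4 at 12h, 10.3 at 16h and 19.8 at 20h. Both 00h arrays lay above all others. The low values were near the control level. The highest *Bacillus* control was 16.4 on 12h A, 7.2 on 12h B and 6.4 at 16h. AT1G69570 was lower at 12h than at 00h, with -2.32 ± 0.235 (limma adjusted p = 4.46e-05, where 18.6% of probe sets passed as lower). The fitted peak was at 0.983 h. Unlike a mirror of GI, it stayed low at 16h and 20h, and r was -0.45. These are RNA levels, and the removal of CDF protein by GI and FKF1 was not measured. HYH, a light-signalling transcription factor related to HY5, was likewise highest at 00h (329.6 and 360.3), fell to 74 at 04h and 10.5 at 08h, and stood at 31.2 and 40.2 at 12h, 38.3 at 16h and 151.9 at 20h. Its lowest hour was the highest of GI, and its value there was just above the highest *Bacillus* control (9.2). From 04h to 08h HYH changed by -1.76 ± 0.325 (limma adjusted p = 0.0338), while GI rose by 2.17.

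Of the other 2 lists with members, the morning and day clock list had 2 of 16 genes. AT4G01280, listed as RVE5 of the CCA1-related family, was lowest at 08h (32.5) and high at 00h (80.6 and 68.3) and 20h (74.4), with r = -0.90, and passed the rhythm test (amplitude 0.432 ± 0.0947; limma adjusted p = 0.0111). AT5G52660, listed as RVE6, did not pass (amplitude 0.143 ± 0.113). SPY, an O-fucosyltransferase that binds GI, had values between 74.2 and 139.7 and did not pass the rhythm test (amplitude 0.291 ± 0.144; limma adjusted p = 0.267). The clock output genes COR27 and AT4G33980 (listed as COR28), a pair of cold-regulated genes, and CCL shared a low at 04h and a rise to 08h. COR27 went from 0.8 at 04h to 168.4 at 08h, AT4G33980 from 0.4 to 118.5 and CCL from 333.4 to 2246.2. On the single 04h array COR27 and AT4G33980 lay below the highest *Bacillus* control (10.8). From 00h to 04h COR27 and CCL passed as lower, while AT4G33980 did not (limma adjusted p = 0.053). CCL passed the rhythm test (limma adjusted p = 0.0479), while COR27 (0.165) and AT4G33980 (0.0873) did not. At 16h, where GI was low, COR27, AT4G33980 and CCL had 201.8, 191.6 and 2572.6. AT4G33980 had 22.5 and 64.2 at 12h in between.

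**Figure D4:**
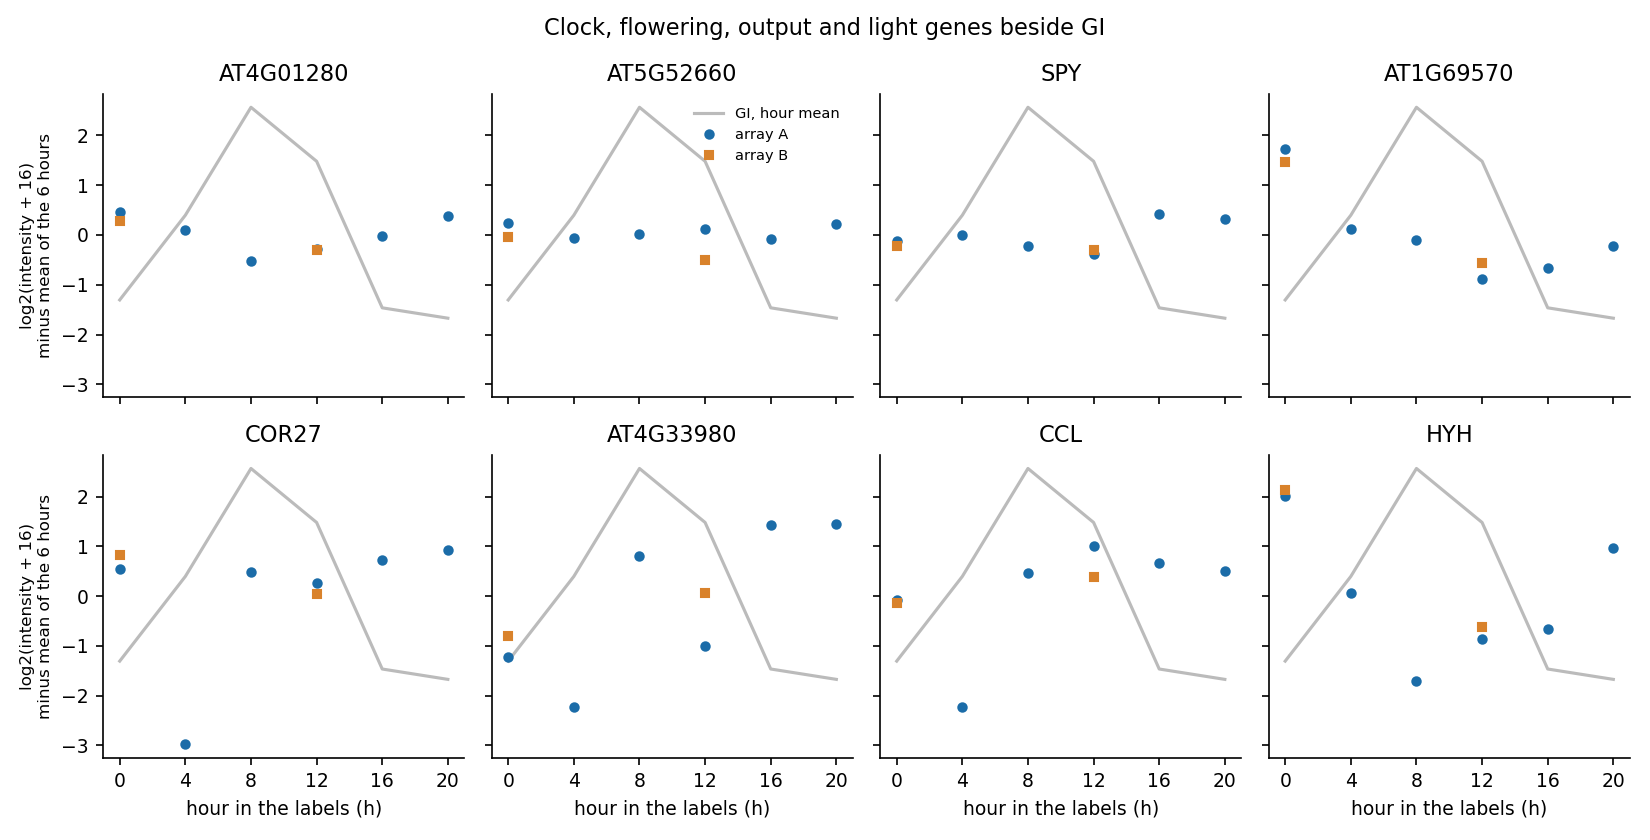
Values of log2(intensity + 16) for the 8 genes with a probe set from the clock, flowering, output and light lists, each centred on the mean of its own 6 hours, with a point per array and the centred hour means of GI as a grey line. HYH and AT4G01280 are lowest at 08h, where GI is highest, and AT1G69570 is highest at 00h.

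As a check on the scale, the 5 tested reference genes had limma adjusted p-values between 0.0751 and 0.918 in the rhythm test and amplitudes between 0.0668 (AT2G28390) and 0.301 (AT4G34270), against 2.22 for GI. The r of these reference genes with GI ran from -0.89 (AT4G34270) to 0.55 (AT4G26410). The genes beside GI on chromosome 1 did not share its profile. Of the 5 genes with a named probe set on either side in the RefSeq order, 7 of 10 were tested, and their r with GI ran from -0.36 (AT1G22790) to 0.68 (CYTC-1). AT1G22750, in that order 2 genes before GI, was the 1 neighbour with a rhythm past the threshold (amplitude 0.696; limma adjusted p = 0.0065), and its fitted peak lay at 2.93 h. Its intensity was 627.5 at 04h, against 349.8 at 08h.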

How the data were processed

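Biotin-labelled cRNA from whole pgm rosettes was hybridised to 8 one-colour Affymetrix arrays; per the labels' protocols RNA came from 250 mg of ground tissue and labelling used about 10 µg. The deposited values are intensities on a linear scale, and the submitters' processing notes name MAS5, with no version. All 8 arrays had the same mean of 100 once the top and bottom 2% of values were dropped, so a change in total mRNA between hours is not seen. Arrays have no read depth; their number limits the precision.

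From these, log2(intensity + 16) was computed, 64 control probe sets and the 40% of the others with the lowest mean were left out, and 13647 were fitted with limma 3.58.1 in R 4.3.3 (intensity trend, Benjamini-Hochberg adjustment over all tested probe sets, threshold 0.05). The rhythm fit used the cosine and sine of the hour (5 residual degrees of freedom), and the pairs came from a fit with the hour as a factor (2 residual degrees of freedom). Pearson's r and root mean square differences were computed in Python 3.11.15. The fits were also run on simulated data with independent noise of equal spread at every hour. That run cannot show how an unequal spread between hours or an effect shared by arrays would act. Symbols came from the platform's gene table (13513 probe sets with 1 gene, 503 with several, 8730 not listed), and 13436 were matched to RefSeq TAIR10.1. Genes were named by rule: among those with 1 gene and hour means ranging over at least 1 log2 unit, the 12 highest and 6 lowest r and the 6 smallest differences, then all list members and the 5 named neighbours on either side. The gene, the lists and the rules were chosen with earlier results of these data known. Alternatives were pseudocounts of 1 and 64, other filters and scalings, no trend, added terms and arrays left out. Promoter motifs, which had been planned, were not analysed here.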

Additional observations from a re-analysis of the deposited data

How the results depend on the processing

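GI kept a 24 h rhythm past the threshold under all 18 alternatives (amplitude 1.32 to 3.21, highest limma adjusted p 0.0111). The differences 04h minus 00h, 16h minus 12h, 12h minus 00h and 20h minus 08h kept their direction under all 12 of theirs. They kept their call under those with all 8 arrays. With a 00h or 12h array left out only the other pair gave a spread, so no call is given there. The fitted peak was at 8.90 h with 12 h terms added and ran from 8.16 h to 9.03 h when arrays were left out. The rise from 04h to 08h lost its call with a pseudocount of 1 (2.39) and with no filter (2.17), which also ended the call of 16h minus 04h (limma adjusted p = 0.0846). With the letters A and B as a replicate block, the changes 08h minus 04h and 12h minus 08h were 2.17 and -1.19 (limma adjusted p = 6.05e-04 and 0.0569), and 11 of 15 pairs passed against 10. This block takes up 1 of the 2 residual degrees of freedom. The letters are not stated to pair the arrays, and A minus B correlated at 0.297 between 00h and 12h. In hybridisation control level (mean log2) the A arrays of 04h, 08h, 16h and 20h (7.26 to 7.50) were near 00h B and 12h B (7.56 and 7.58). They were not near 00h A and 12h A (9.17 and 9.21). The difference 12h minus 04h passed with quantile normalization (1.20), this block (0.979) and the hybridisation control level as a term (1.19). It was 1.08 with either 00h array left out, where only the 12h pair gave a spread. With the lowest 60% left out GI itself fell below the filter, so that alternative gave no value.

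Of the 50 probe sets with the highest r among those with a range of at least 1 log2 unit, 31 were kept with a pseudocount of 1, 23 with 64, 33 with r over hour means, 14 with Spearman's rho, 6 by root mean square difference, 27 without the arrays 00h A and 12h A (chosen after seeing the data), and 10 to 40 with 1 array left out, fewest without 04h, 08h (14) and 16h (19). Counts over all probe sets varied with the setting, and the cause was not tested: rhythm 3707 to 6095 (5549 as reported), 04h minus 00h 2272 to 4939 (3690), 08h minus 04h 0 to 460 (140), 12h minus 08h 0 to 186 (12), 16h minus 12h 358 to 2789 (1526), 20h minus 16h 0 to 109 (1), 20h minus 00h 0 to 141 (19), 12h minus 04h 39 to 1089 (364), 16h minus 00h 14 to 1747 (568) and 20h minus 08h 1288 to 4240 (2795). The lowest of each pair count came with no filter and most of the highest with the replicate block.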
